A study of Homo sapiens with 6 samples.

Results

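The 10 genes described here encode chaperones and disulfide isomerases of the endoplasmic reticulum (ER): Hspa5, Hyou1, Sdf2l1, Manf, Hsp90b1, Calr, Canx, Pdia3, Pdia4 and Pdia6. They were chosen by Ensembl mouse gene identifier (ID) from the 34866 rows of the deposited table, and each of the 10 IDs had 1 row. The table itself carries no symbols, and the symbols used here were assigned to the 10 IDs for this work. The study measured gene expression by RNA sequencing in MKN45, a human gastric adenocarcinoma line that the design text describes as MUC6-negative, to relate GOLPH3 to gastric carcinogenesis. There were 3 libraries of cells given an adenovirus with a control short hairpin RNA (shRNA) and 3 of cells given an adenovirus with an shRNA against Golph3, so that both groups carried a virus. Dose, time after infection and hairpin sequence are not stated in the labels. The titles number the replicates 1 to 3 without saying whether they were separate cultures, so the p-values cover the spread among these libraries, which could be technical.

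The counts were assigned to mouse gene models although the labels give human cells, and it cannot be told from the table whether the reads were human or came from mouse cells. A value is therefore a count assigned to an ID, compared with the same ID in the other libraries. Levels of different genes are set side by side only to rank IDs by assigned counts and to sum the members as a share of a library. Such ranks and sums depend on how many reads of each gene could be assigned. The level of GOLPH3, which would check the knockdown, and the markers of the cell line were not analysed here. Library totals ran from 6287037 to 7355140 estimated counts in the controls and from 4977645 to 5676169 with GOLPH3 shRNA. Between 39.8% and 40.9% of the control counts and between 41% and 43.9% of the GOLPH3 shRNA counts were fractional estimates, which can arise when reads are divided between gene models.

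Proteins that enter the secretory pathway fold in the ER lumen before they move on to the Golgi, where GOLPH3 helps to hold glycosyltransferases. Chaperones related to the cytosolic heat shock proteins bind exposed hydrophobic stretches, the lectin chaperones calnexin and calreticulin bind chains that carry an N-glycan with a single terminal glucose, and protein disulfide isomerases form and rearrange disulfide bonds. When unfolded proteins accumulate, the unfolded protein response raises transcription of many of these genes through the transcription factors ATF6 and XBP1, which act at ER stress response elements in promoters.

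The promoters of the human counterparts, looked up because the members moved together, are shown first as background. Whether their motifs relate to the changes described below was not tested. The windows are the 250 bases before each annotated start in RefSeq (GRCh38.p14), matched by the symbol in capitals. A window was found for 9 of the 10 genes (none for PDIA3), with 14 windows in all since some genes have several starts. These are human sequences, chosen to fit the labelled cell line, and not the mouse models to which the reads were assigned. The windows of HSPA5, HYOU1 and HSP90B1 are printed 5′ to 3′ with the fixed bases of each matched motif in capitals. HSPA5 and HYOU1 are the genes with the largest fold changes, and HSP90B1 has a fold change among the smallest. Their windows hold 1, 3 and 2 matches in that order. HSPA5 lies on the minus strand at chr9:125241344-125241593, HYOU1 on the minus strand at chr11:119057206-119057455 and HSP90B1 on the plus strand at chr12:103930160-103930409.
HSPA5: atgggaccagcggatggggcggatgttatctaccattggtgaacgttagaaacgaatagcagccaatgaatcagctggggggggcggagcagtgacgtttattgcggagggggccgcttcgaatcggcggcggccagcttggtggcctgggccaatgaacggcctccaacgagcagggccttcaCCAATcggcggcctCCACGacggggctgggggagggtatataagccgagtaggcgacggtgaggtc
HYOU1: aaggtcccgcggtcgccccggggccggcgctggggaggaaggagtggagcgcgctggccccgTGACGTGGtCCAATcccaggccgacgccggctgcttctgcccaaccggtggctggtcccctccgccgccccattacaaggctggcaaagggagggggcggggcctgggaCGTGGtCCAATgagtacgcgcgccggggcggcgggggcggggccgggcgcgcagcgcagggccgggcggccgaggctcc
HSP90B1: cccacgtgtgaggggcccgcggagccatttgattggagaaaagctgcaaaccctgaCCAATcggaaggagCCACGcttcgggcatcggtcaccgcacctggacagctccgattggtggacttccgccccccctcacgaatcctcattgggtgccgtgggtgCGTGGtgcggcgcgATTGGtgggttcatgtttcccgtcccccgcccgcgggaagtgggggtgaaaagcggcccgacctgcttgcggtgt

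The search took exact matches on both strands to 3 motifs: the ER stress response element (ERSE, CCAATNNNNNNNNNCCACG), its shorter form (ERSE-II, ATTGGNCCACG) and the unfolded protein response element (UPRE, TGACGTGG). At least 1 match was found for 7 of the 9 genes with a window, against 0.93% of the 27305 symbols with a window in the table. An ERSE was found in HSPA5, HSP90B1, CALR, CANX and PDIA6, against 0.0916% of symbols, and an ERSE-II in HYOU1 and SDF2L1, against 0.0659%. The UPRE was found in HYOU1, where it overlaps an ERSE-II, against 0.78% of symbols. The ERSE was originally described from promoters of this group of genes, so that its presence in them is background and not a finding of these data. The matched stretches, read on the strand of the motif, show how the spacer bases differ while the capitals are fixed; CANX has the same stretch in 2 overlapping windows.
HSPA5: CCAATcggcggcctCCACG
HSP90B1, distal: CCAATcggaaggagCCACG
HSP90B1, proximal: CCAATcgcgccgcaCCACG
CALR: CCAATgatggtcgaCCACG
CANX: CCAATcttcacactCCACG
PDIA6: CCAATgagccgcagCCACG
HYOU1, distal and proximal: ATTGGaCCACG
SDF2L1: ATTGGtCCACG

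The matches lay between 225 and 48 bases before the start. The ERSE of HSPA5 covered bases 66 to 48, and the ERSE-II matches of HYOU1 covered bases 185 to 175 and 79 to 69. No exact match was found in the windows of PDIA4 and MANF, which says only that these letters are not in these windows.

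**Figure D1:**
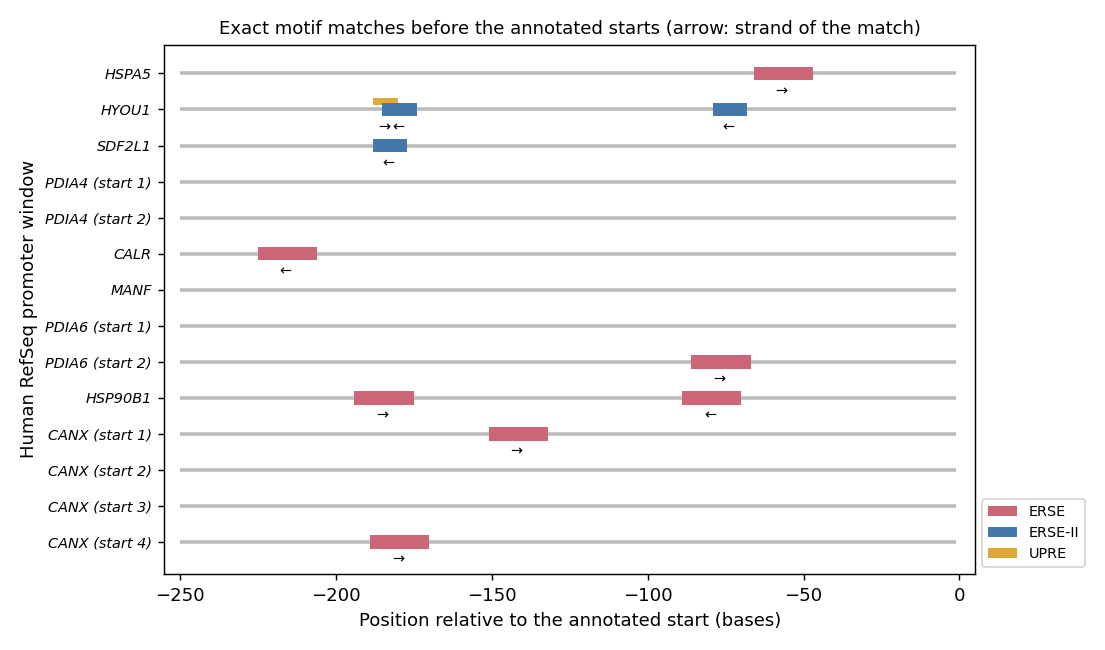
Positions of exact matches to ERSE (red), ERSE-II (blue) and UPRE (yellow) in the 14 human RefSeq windows of 250 bases before a start, in bases relative to that start, with an arrow for the strand of each match. Matches are seen in 8 of the 14 windows, and the windows of PDIA4 and MANF hold none.

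All 10 members were higher in the GOLPH3 shRNA libraries. The count values of each member, scaled to a common library total with trimmed mean (TMM) factors (CPM), did not overlap between the groups, and each member was called higher by the edgeR quasi-likelihood test at a Benjamini-Hochberg adjusted p below 0.05 over the 11400 IDs tested. The fold changes ran from 1.19 for Canx to 2.05 for Hspa5, with a median log2 fold change of 0.51 over the members against 0.0019 over all tested IDs. Of all tested IDs, 16.1% were called higher, 17.8% lower and 33.9% in either direction, and 22.1% had all 3 GOLPH3 shRNA values above all 3 control values. Of the 10 members, 9 were among the 3800 most abundant tested IDs by mean log2 CPM, of which 26.9% were called higher and 25.3% lower. The members were chosen with earlier results of these data known, so the shares are given for scale and the contrast was not tested. All 10 IDs passed the filter on low counts, with at least 180 estimated counts in every library. In bulk RNA, a change in every cell and a change in the share of cells with a high level cannot be told apart.

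**Figure D2:**
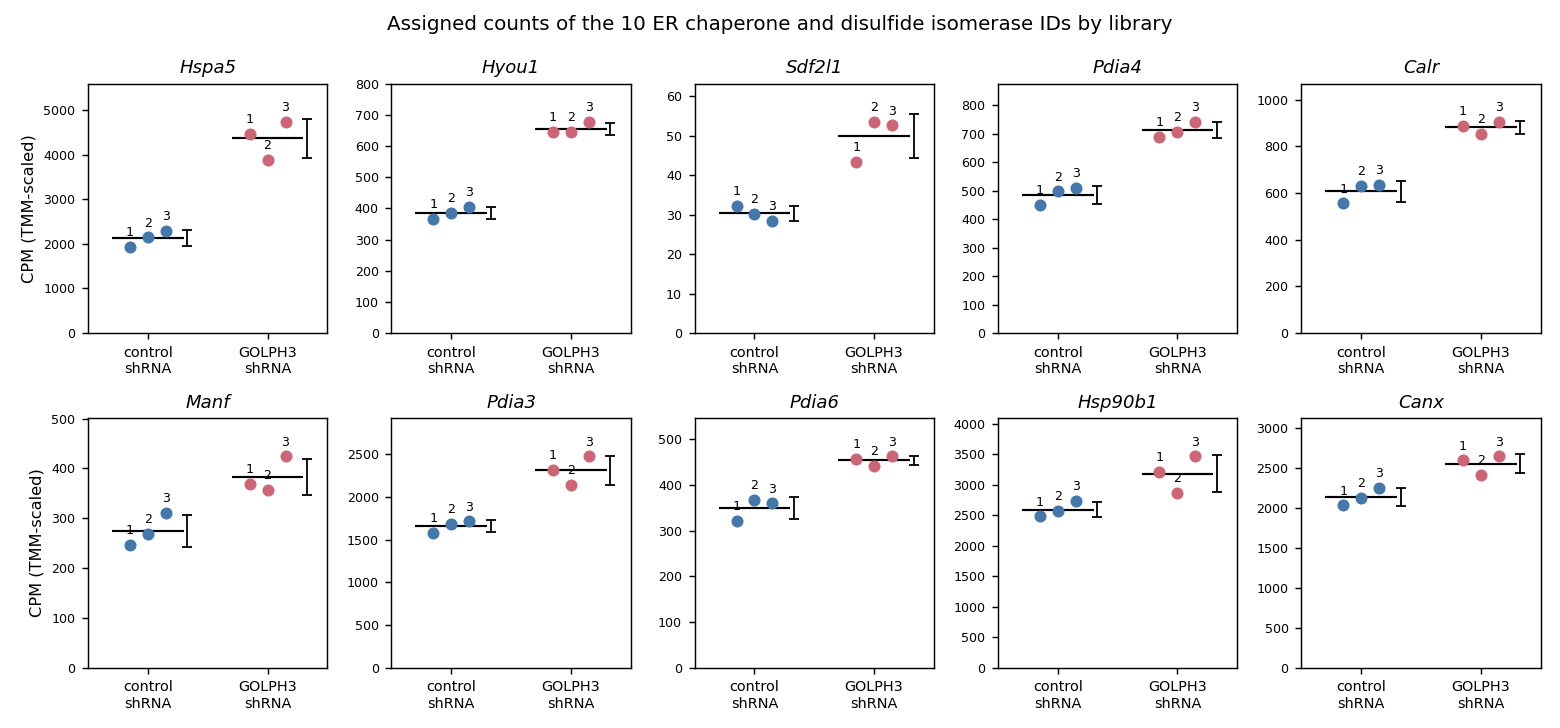
CPM of each member in the 3 control shRNA libraries (blue) and the 3 GOLPH3 shRNA libraries (red), numbered by replicate; lines are means, bars are SD, and each axis starts at 0. In every panel the GOLPH3 shRNA points lie above the control points, narrowly for Hsp90b1 and Canx and widely for Hspa5 and Hyou1.

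Hspa5 (ENSMUSG00000026864.13) encodes BiP, the Hsp70 of the ER, which binds unfolded chains and also holds the stress sensors of the ER membrane inactive. It received 12469, 15722 and 14596 counts in control replicates 1, 2 and 3, and 22039, 21738 and 26241 in GOLPH3 shRNA replicates 1, 2 and 3. Although the GOLPH3 shRNA libraries were smaller, each held more Hspa5 counts than any control library. Scaled, the values were 1941, 2144 and 2300 CPM in the controls and 4468, 3892 and 4742 CPM with GOLPH3 shRNA. The lowest GOLPH3 shRNA value was 1.69 times the highest control value. Hspa5 rose 2.05-fold (log2 fold change 1.04, SE 0.082, 95% interval of the fold 1.82 to 2.31, edgeR adjusted p = 2.22e-07), and 2.74% of the tested IDs had a larger log2 fold change.

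Hyou1 (ENSMUSG00000032115.14) encodes a large chaperone related to Hsp70 proteins that serves BiP as a nucleotide exchange factor. Its values were 367, 387 and 405 CPM in the controls and 644, 644 and 678 CPM with GOLPH3 shRNA. Both groups were tight, with an SD of 19.2 CPM in the controls and 19.7 CPM with GOLPH3 shRNA, and the gap between them was wide, the lowest GOLPH3 shRNA value being 1.59 times the highest control value. The rise was 1.70-fold (log2 fold change 0.76, SE 0.066, edgeR adjusted p = 6.18e-07), and 5.84% of the tested IDs had a larger log2 fold change. The counts of Hyou1 were fractional in every library, so part of its reads may have been shared with another gene model, and its values are uncertain to that extent.

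Sdf2l1 (ENSMUSG00000022769.8) encodes a small ER protein found in a complex with BiP and an ER J-domain cochaperone, and it had the fewest counts of the 10, between 180 and 299 per library. The controls had 32.2, 30.3 and 28.4 CPM, and the GOLPH3 shRNA libraries 43.4, 53.5 and 52.6 CPM. GOLPH3 shRNA replicate 1 was the lowest of its group and still 1.35 times the highest control. Sdf2l1 rose 1.65-fold with the widest interval of the members (SE 0.12 on the log2 scale, 95% interval of the fold 1.39 to 1.96, edgeR adjusted p = 0.000204). Its counts were whole, within 1e-06, in 4 of the 6 libraries. They were fractional in control replicates 1 and 2 (207.106 and 221.78) and in no GOLPH3 shRNA library.

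Manf (ENSMUSG00000032575.16) encodes a small soluble protein that binds BiP in the ER, can be secreted under stress and is known as a survival factor for neurons. The controls had 246, 268 and 310 CPM and the GOLPH3 shRNA libraries 368, 357 and 424 CPM. Its controls were the most scattered of the members by coefficient of variation (11.8%), and the groups did not overlap. The rise was 1.39-fold (log2 fold change 0.48, SE 0.088, edgeR adjusted p = 0.000578).

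Hsp90b1 (ENSMUSG00000020048.13) encodes GRP94, the Hsp90 of the ER, which folds integrins and Toll-like receptors among other clients. It had 2484, 2568 and 2739 CPM in the controls and 3216, 2869 and 3468 CPM with GOLPH3 shRNA. The lowest GOLPH3 shRNA value, in replicate 2, was 1.05 times the highest control value, the narrowest gap of the members. Hsp90b1 rose 1.23-fold (log2 fold change 0.29, SE 0.075, 95% interval of the fold 1.10 to 1.37, edgeR adjusted p = 0.00617). This is a modest change among all IDs, since 25.6% of those tested had a larger log2 fold change.

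The lectin chaperones Calr and Canx, which share the glycan they recognise, both rose. Calr (ENSMUSG00000003814.8) encodes calreticulin, the soluble one of the pair, and had 555, 632 and 634 CPM in the controls against 887, 852 and 906 CPM with GOLPH3 shRNA. It rose 1.45-fold (log2 fold change 0.54, SE 0.070, edgeR adjusted p = 2.5e-05). Canx (ENSMUSG00000020368.15) encodes calnexin, which is anchored in the membrane, and had 2031, 2130 and 2252 CPM against 2595, 2418 and 2645 CPM. Its groups were separated by a factor of 1.07, and it rose 1.19-fold (log2 fold change 0.26, SE 0.067, edgeR adjusted p = 0.00724). The call of Canx was lost without GOLPH3 shRNA replicate 1 (edgeR adjusted p = 0.0513, log2 fold change 0.24), the highest value over its 15 alternatives, which went down to 0.000228. Within each library, the ratio of Calr to Canx was higher with GOLPH3 shRNA by 0.27, 0.31 and 0.27 on the log2 scale than the control mean, a 1.22-fold difference (SD 0.060 in the controls and 0.025 with GOLPH3 shRNA, n = 3, exact two-sided permutation p = 0.1, the smallest that 3 against 3 allows). This pair was set side by side after its values were seen, and ratios that do not overlap between the groups are common, at 62.2% of all pairs of the 3800 most abundant IDs.

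The 3 disulfide isomerases rose by 1.30 to 1.47-fold. Pdia3 (ENSMUSG00000027248.13) encodes ERp57, which works with calnexin and calreticulin on glycoproteins. It had 1582, 1682 and 1712 CPM in the controls and 2315, 2139 and 2473 CPM with GOLPH3 shRNA (1.39-fold, log2 fold change 0.48, SE 0.069, edgeR adjusted p = 7.06e-05). Pdia4 (ENSMUSG00000025823.9) encodes ERp72, an isomerase with several thioredoxin-like domains, and went from 451, 498 and 510 to 689, 708 and 743 CPM (1.47-fold, log2 fold change 0.55, SE 0.069, edgeR adjusted p = 1.8e-05). Pdia6 (ENSMUSG00000020571.12) encodes an isomerase also known as P5 that associates with BiP. It went from 322, 368 and 360 to 457, 442 and 463 CPM, and its fold of 1.30 was the smallest of the isomerases (log2 fold change 0.38, SE 0.069, edgeR adjusted p = 0.000589). For each isomerase the 3 GOLPH3 shRNA values lay above the 3 control values, with the widest gap for Pdia4, whose lowest GOLPH3 shRNA value was 1.35 times its highest control value.

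**Figure D3:**
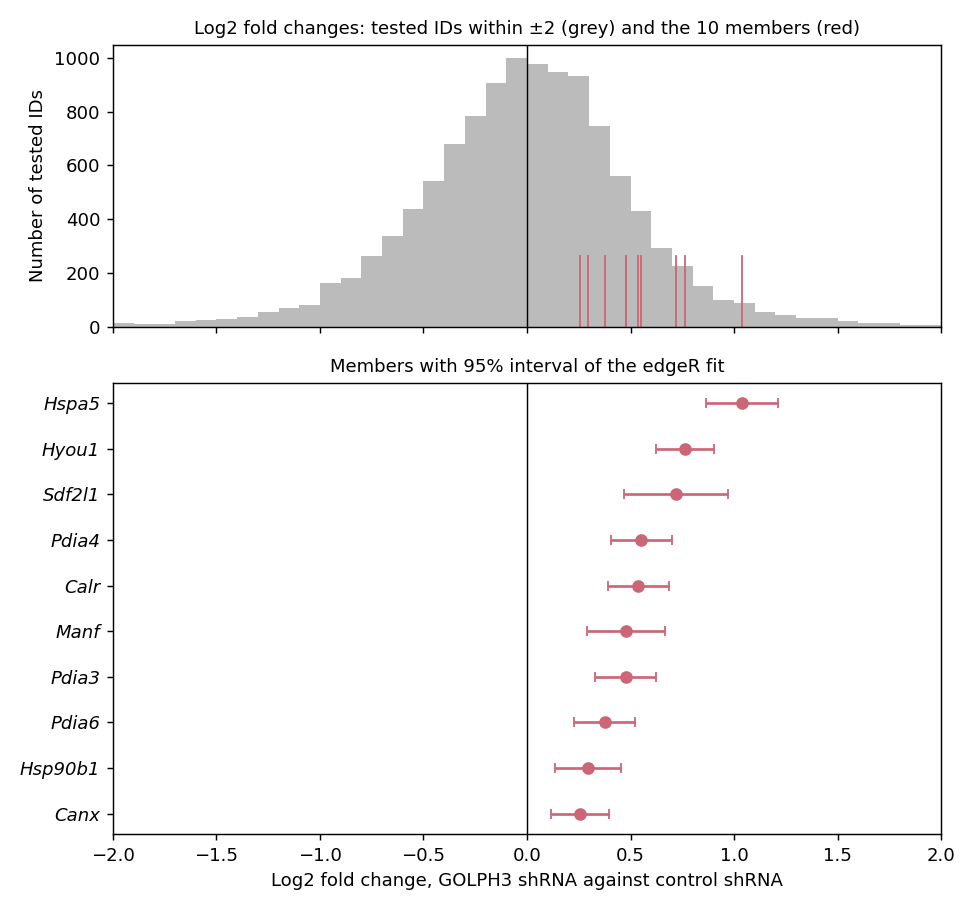
Top, log2 fold changes (GOLPH3 shRNA against control shRNA) of the tested IDs within the plotted range as counts per bin, with the 10 members as red lines; bottom, each member with its 95% interval from the edgeR fit. The member values run from 0.26 (Canx) to 1.04 (Hspa5), all to the right of 0, inside the upper part of the spread of all IDs.

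In size, the changes were ordinary when set against all IDs called higher, a background not matched for abundance. The median fold of these IDs was 1.43, and 5 of the 10 members lay above it. No such median was taken for the 3800 most abundant IDs, to which 9 members belong. A fold of at least 1.5 was reached by Hspa5, Hyou1 and Sdf2l1, while 6.57% of all tested IDs, and 5.63% of the 3800 most abundant, were called higher with such a fold. These were 749 of the 1840 IDs called higher, and 214 of the 1024 among the most abundant. Large folds were thus rarer among the abundant IDs called higher. The upper quartile of the log2 fold change over all tested IDs was 0.30, which 8 members exceeded, and the 95th percentile was 0.82, which was exceeded by Hspa5 alone. Over the 3800 most abundant IDs the upper quartile was 0.256. Canx, the lowest member, lay at about that value (0.256), and the other members lay above it.

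As a share of all assigned counts, the 10 members together made up 1.02%, 1.07% and 1.11% of the control libraries and 1.55%, 1.46% and 1.62% of the GOLPH3 shRNA libraries, from the deposited totals without TMM factors. Hspa5 alone went from 0.213% ± 0.014 to 0.434% ± 0.034 (SD, n = 3). Without Hspa5 the other 9 went from 0.853% ± 0.029 to 1.11% ± 0.045. The rise in the summed share was thus not carried by Hspa5 alone. The groups did not overlap in any of these shares.

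Since Hspa5 had the largest fold, it was set against each other member within the same library, a ratio that does not depend on library size or scaling; this comparison was chosen after the values were seen. With GOLPH3 shRNA the ratio of Hspa5 to Hsp90b1 lay 0.76, 0.73 and 0.74 above the control mean on the log2 scale, where the controls lay at -0.066, 0.029 and 0.037, so that the ratio was 1.68-fold higher. Against Canx the ratio was 1.72-fold higher, and against Hyou1, its nearest neighbour in fold, 1.21-fold higher. The ratio of Hspa5 was above every control value in every GOLPH3 shRNA library for 8 of the 9 other members (exact two-sided permutation p = 0.1 for each, the smallest that 3 against 3 allows, so that none could pass 0.05). The exception was Sdf2l1, where GOLPH3 shRNA replicate 2 lay at 0.050, below control replicate 3 at 0.21 (exact p = 0.2). Against the other IDs among the 3800 most abundant, the ratio of Hspa5 was separate in the same way for 96.8%. Over the 45 pairs of members, ratios did not overlap between the groups for 28, close to the 62.2% found for all pairs of the 3800 most abundant IDs. The 17 pairs whose ratios did overlap had mean differences from -0.34 (Pdia6 to Sdf2l1) to 0.32 (Hspa5 to Sdf2l1) on the log2 scale, and 7 of them included Sdf2l1, the member with the fewest counts.

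**Figure D4:**
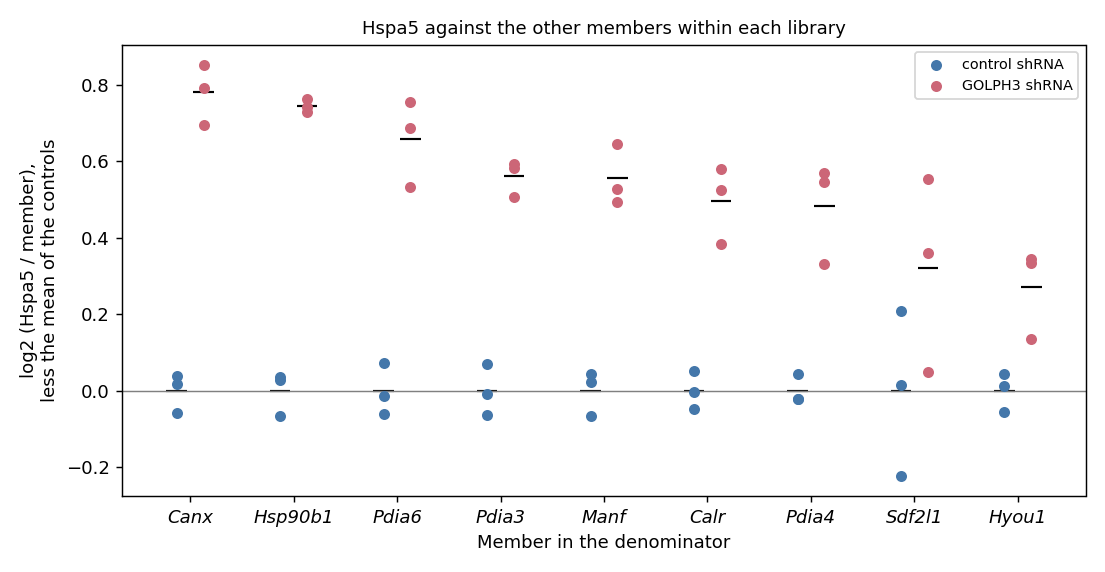
Log2 ratio of Hspa5 to each other member within each library, less the mean of the control libraries, for control shRNA (blue) and GOLPH3 shRNA (red); short lines are means. The red points lie above the blue points for 8 members, from a mean of 0.78 for Canx to 0.27 for Hyou1, and overlap for Sdf2l1.

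Library by library within a group, the members were often high or low in the same library. Control replicate 1 had the lowest CPM of its group for 9 of the 10 members, and control replicate 3 the highest for 8, against 43.7% and 38.4% of the 3800 most abundant tested IDs. GOLPH3 shRNA replicate 2 was the lowest for 7, and GOLPH3 shRNA replicate 3 the highest for 9, against 37.3% and 38.6% of those IDs. The mean deviation of the members from their group mean ran from -0.081 (control replicate 1) to 0.065 (control replicate 3), and from -0.060 to 0.082 in the GOLPH3 shRNA group, on the log2 scale. The 45 pairwise Pearson correlations of these deviations over 6 libraries ran from -0.58 to 0.98 with a median of 0.78, and 36 of them were above 0. Over all pairs of the 3800 most abundant IDs the median was 0.0089, with 50.5% above 0. The values share library and scaling factor, and these correlations and counts are a description with no test. These mean shifts within a group were smaller than the median difference between the groups of 0.51. They are averages over the members, and a single member could spread more. Hsp90b1, with a log2 fold change of 0.29, lay 0.31, 0.14 and 0.42 above its control mean in GOLPH3 shRNA replicates 1, 2 and 3.

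The GOLPH3 shRNA libraries were all smaller than the control libraries, and all held a larger share of fractional counts. With every library thinned to the smallest total, the 10 members were still called higher, with a median log2 fold change of 0.51. Thinning evens out the totals only, and whether the share of fractional counts relates to the changes was not tested. The counts of 8 members were whole (within 1e-06) in every library, the exceptions being Hyou1 and Sdf2l1.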

How the data were processed

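The authors deposited 1 table of estimated counts (expected counts) per gene ID for 6 libraries, 3 with control shRNA and 3 with GOLPH3 shRNA. Per the submitters' processing notes the genome build was mm10, and per the labels' protocols libraries were made with a stranded kit selecting mRNA. For the aligner, quantifier, annotation release and strand setting, no label or header gives a name.

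Groups follow the sample titles. Counts were rounded, filtered with filterByExpr (11400 IDs kept) and fitted with edgeR 4.0.16 in R 4.3.3 with TMM factors and its quasi-likelihood test, with Benjamini-Hochberg adjustment over all tested IDs, called at adjusted p below 0.05. SE is the log2 fold change over the square root of F, and 95% intervals use its degrees of freedom. The code was tested on simulated data. Alternatives were DESeq2 1.42.0, limma-voom 3.58.1, other scalings and filters, a 1.5-fold minimum, thinning, a replicate block and each library left out. The rule named all 10 members. The members, lists and motifs were chosen with earlier results of these data known. Related ER genes and cell markers listed by symbol were not analysed here, since the gene tables used are for human genes.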

Additional observations from a re-analysis of the deposited data

How the results depend on the processing

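All 10 members were called higher (adjusted p below 0.05) under 14 of the 15 alternatives of scaling, filter, test, thinning, replicate block and left-out library. The exception was the fit without GOLPH3 shRNA replicate 1, in which 9 were called and Canx was not. The median log2 fold change of the members ran from 0.46 (without control replicate 1) to 0.57 (without control replicate 3). The smallest log2 fold changes of Hsp90b1 and Canx were 0.22 and 0.22, and no member changed direction. No scaling moved the median of all IDs by over 0.1. By construction, a minimum of 1.5-fold left 3 members higher, with 749 IDs higher and 1041 lower where the main counts were 1840 and 2030. Leaving out libraries gave 1425 to 1665 IDs higher and 1644 to 1929 lower. With the replicate number as a block, 1842 IDs rose and 2045 fell, and no call of a member differed. Deviations of same-numbered libraries correlated at 0.032, 0.090 and 0.044 over all tested IDs. Those of differently numbered libraries ran from -0.086 to 0.037. Only control replicate 1 with GOLPH3 shRNA replicate 3 (0.037) was above 0 among these. Same-numbered libraries thus tended to correlate higher, but deviations from a group mean sum to 0 within each group. The values of same-numbered and differently numbered libraries are therefore linked and give no separate baseline. All values were small and the numbers were not taken as pairs. Sdf2l1 had the fewest counts (180 to 299 per library) and the largest SE (0.12), and thinned to the smallest total it was still called.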
